A study of Mus musculus with 12 samples.

Results

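The subunit genes of the mitochondrial respiratory chain were compared between mouse cortical neuronal cultures labelled IFNG and cultures labelled Control, by complex I to V and by the genome that encodes them. Members were chosen by symbol: the Nduf genes of the a, b, c, s and v series, Sdha to Sdhd, the Uqcr genes with Cyc1, the Cox genes of the subunit families, the Atp5 genes, and the mt-Nd, mt-Co, mt-Cytb and mt-Atp genes, without pseudogenes. Of 43629 genes in the count table, 108 matched by name. Of these, 10 were pseudogenes and 5 fell short of 10 counts in at least 6 of the 12 libraries, which left 93 members, 80 nuclear and 13 mitochondrially encoded. Cox7a1, a muscle isoform, was just inside that limit with 10 counts or more in 7 libraries, while Cox7b2 and Ndufa4l2, just outside it, had that many in 2. The other genes left out were Cox4i2, Cox8b and Cox8c. The names do not match the complexes in every case: Cox7a2l, counted here under complex IV, is a supercomplex factor, Atp5s, counted under complex V, is a factor that couples to the synthase, Ndufa4, counted under complex I, makes a protein now placed in complex IV, and Ndufab1, an accessory subunit of complex I, is not reached by the rule.

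Complex I takes electrons from NADH and complex II, an enzyme of the tricarboxylic acid cycle, takes them from succinate. Both pass them through ubiquinone to complex III, and cytochrome c carries them on to complex IV, which reduces oxygen. The proton gradient that complexes I, III and IV build drives complex V, the ATP synthase, and neurons rely on this route for most of their ATP. All subunits of complex II are nuclear, whereas the other complexes join nuclear subunits to a few made inside the mitochondrion.

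In the 6 IFNG samples, neurons met interferon-gamma without a break through a lentivirus that overexpresses Ifng, given on day 7 in vitro, and were harvested 10 days later. The 6 Control samples had the same age at harvest, but since every sample carries the same treatment text, what virus they were given, if any, is not known. The labels give neither the promoter of the construct nor a mouse strain or genotype. RNA was enriched for poly(A) before library preparation.

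Ifng had 92 to 421 counts in IFNG libraries and 0 to 3 in Control libraries, so the labels of all 12 matched the targeted gene. Library totals ran from 13875435 to 34239380 counts in IFNG and from 14408343 to 20299507 in Control. The fit tested 15241 genes and called 2184 higher and 1492 lower in IFNG cultures, so that 59.4% of its calls were higher. When the risen genes were dropped from the totals used for scaling, which lifts IFNG values by construction, 75.4% were. Neuron markers were abundant in every library, with a summed level of 4764 to 5954 CPM (counts scaled to the TMM-adjusted library total) in IFNG and 6300 to 6918 CPM in Control, and 7 of 16 tested were lower in IFNG and 0 higher. Astrocyte markers summed to 6100 to 9811 CPM in IFNG and 3477 to 3916 CPM in Control, and 16 of 16 tested were higher, by a median of 1.21 on the log2 scale. No gene of either list was at 0 over all libraries. In bulk RNA such as this, fewer cells of a type and less RNA per cell cannot be told apart, and the part of this shift in the results on the respiratory chain was not tested.

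Promoters of respiratory chain genes often carry sites for the regulator NRF1, and the promoters below are shown because complex II and Uqcrc1 recur in the results. The windows run from 250 bases before to 50 after the RefSeq start (GRCm38.p6). Capitals mark matches on either strand to the NRF1 motif GCGCNTGCG or to the ETS family motif CCGGAAG.
Sdha, chr13:74350191-74350490, minus strand: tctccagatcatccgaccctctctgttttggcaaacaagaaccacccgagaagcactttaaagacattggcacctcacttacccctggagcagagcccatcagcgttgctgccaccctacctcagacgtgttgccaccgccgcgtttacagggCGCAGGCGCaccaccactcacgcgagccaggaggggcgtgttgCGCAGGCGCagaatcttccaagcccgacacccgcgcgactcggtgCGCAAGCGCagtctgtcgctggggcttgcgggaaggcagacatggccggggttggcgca
Sdhb, chr4:140961021-140961320, plus strand: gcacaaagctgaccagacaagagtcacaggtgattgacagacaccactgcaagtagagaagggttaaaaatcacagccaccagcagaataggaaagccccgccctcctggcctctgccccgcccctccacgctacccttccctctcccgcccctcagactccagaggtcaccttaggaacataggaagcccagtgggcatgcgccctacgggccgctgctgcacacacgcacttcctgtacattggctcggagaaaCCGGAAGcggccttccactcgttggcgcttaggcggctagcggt
Sdhd, chr9:50603800-50604099, minus strand: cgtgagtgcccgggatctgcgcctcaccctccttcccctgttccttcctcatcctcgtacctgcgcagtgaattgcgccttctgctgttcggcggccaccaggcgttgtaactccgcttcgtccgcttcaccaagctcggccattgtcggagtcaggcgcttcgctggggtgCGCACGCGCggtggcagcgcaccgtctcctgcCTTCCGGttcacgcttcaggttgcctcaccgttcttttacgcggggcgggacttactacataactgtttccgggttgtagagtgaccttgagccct
Uqcrc1, chr9:108936398-108936697, plus strand: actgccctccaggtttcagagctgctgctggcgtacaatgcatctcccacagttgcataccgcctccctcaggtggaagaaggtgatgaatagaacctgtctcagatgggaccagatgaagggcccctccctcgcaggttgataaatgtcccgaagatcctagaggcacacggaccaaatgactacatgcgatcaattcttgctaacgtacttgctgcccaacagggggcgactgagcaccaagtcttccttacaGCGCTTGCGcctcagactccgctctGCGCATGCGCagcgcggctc

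A window was found for 66 of the 80 nuclear members. The NRF1 motif was in 23 of them (34.8%), against 9.68% of the windows of 17492 protein-coding genes. Sdha held it in 3 stretches and Uqcrc1 in 2, and the second stretch of Uqcrc1 reads as a match on both strands, 1 base apart. The ETS motif was in 16 (24.2%), against 12.95% of protein-coding windows, and the YY1 motif AAGATGGC in 10 (15.2%), against 3.57%. The interferon-gamma activated site TTCNNNGAA was in 5 (7.6%), against 8.92%, and the interferon-stimulated element GAAANNGAA in 7 (10.6%), against 9.43%. Of the 10 members that rose in IFNG cultures, 7 had a window. Of these 7, 2 held the NRF1 motif, 2 the ETS motif, 0 the YY1 motif and 0 either interferon motif. So few windows cannot tell such counts from the shares of all members. A match is a stretch of letters, not a measured site.

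The nuclear members lay slightly above Control in nearly every case, and few of them passed the test. Of 79 tested, 10 rose in IFNG cultures and 0 fell, at a Benjamini-Hochberg adjusted p below 0.05 over all genes, from the quasi-likelihood test of edgeR that gives every adjusted p below. That is 12.7% of the tested nuclear members, close to the 14.3% of all genes that were higher, while 9.79% of all genes were lower. The log2 fold change of IFNG over Control was above 0 for 74 of the 79 (93.7%), against 48% of all genes, and its median was 0.19, or 1.14-fold, against -0.02 over all genes. At an unadjusted p below 0.05, 28 nuclear members were higher and 0 lower (35.4% of those tested), against 19% higher and 16% lower among all genes. Among the members that rose were Ndufb9, Ndufa7, Ndufa2, Ndufs8 and Ndufc2 of complex I, Sdha and Sdhb of complex II, Uqcrc1 of complex III and Cox7a2 of complex IV, and the rises ran from 1.2-fold to 1.43-fold. In either direction, 24.1% of all genes passed. Tested against a fold change of 1.2, 0 members passed as higher, where 9.8% of all genes did, and DESeq2 called 14 nuclear members higher, where it called 15.4% of all genes.

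**Figure D1:**
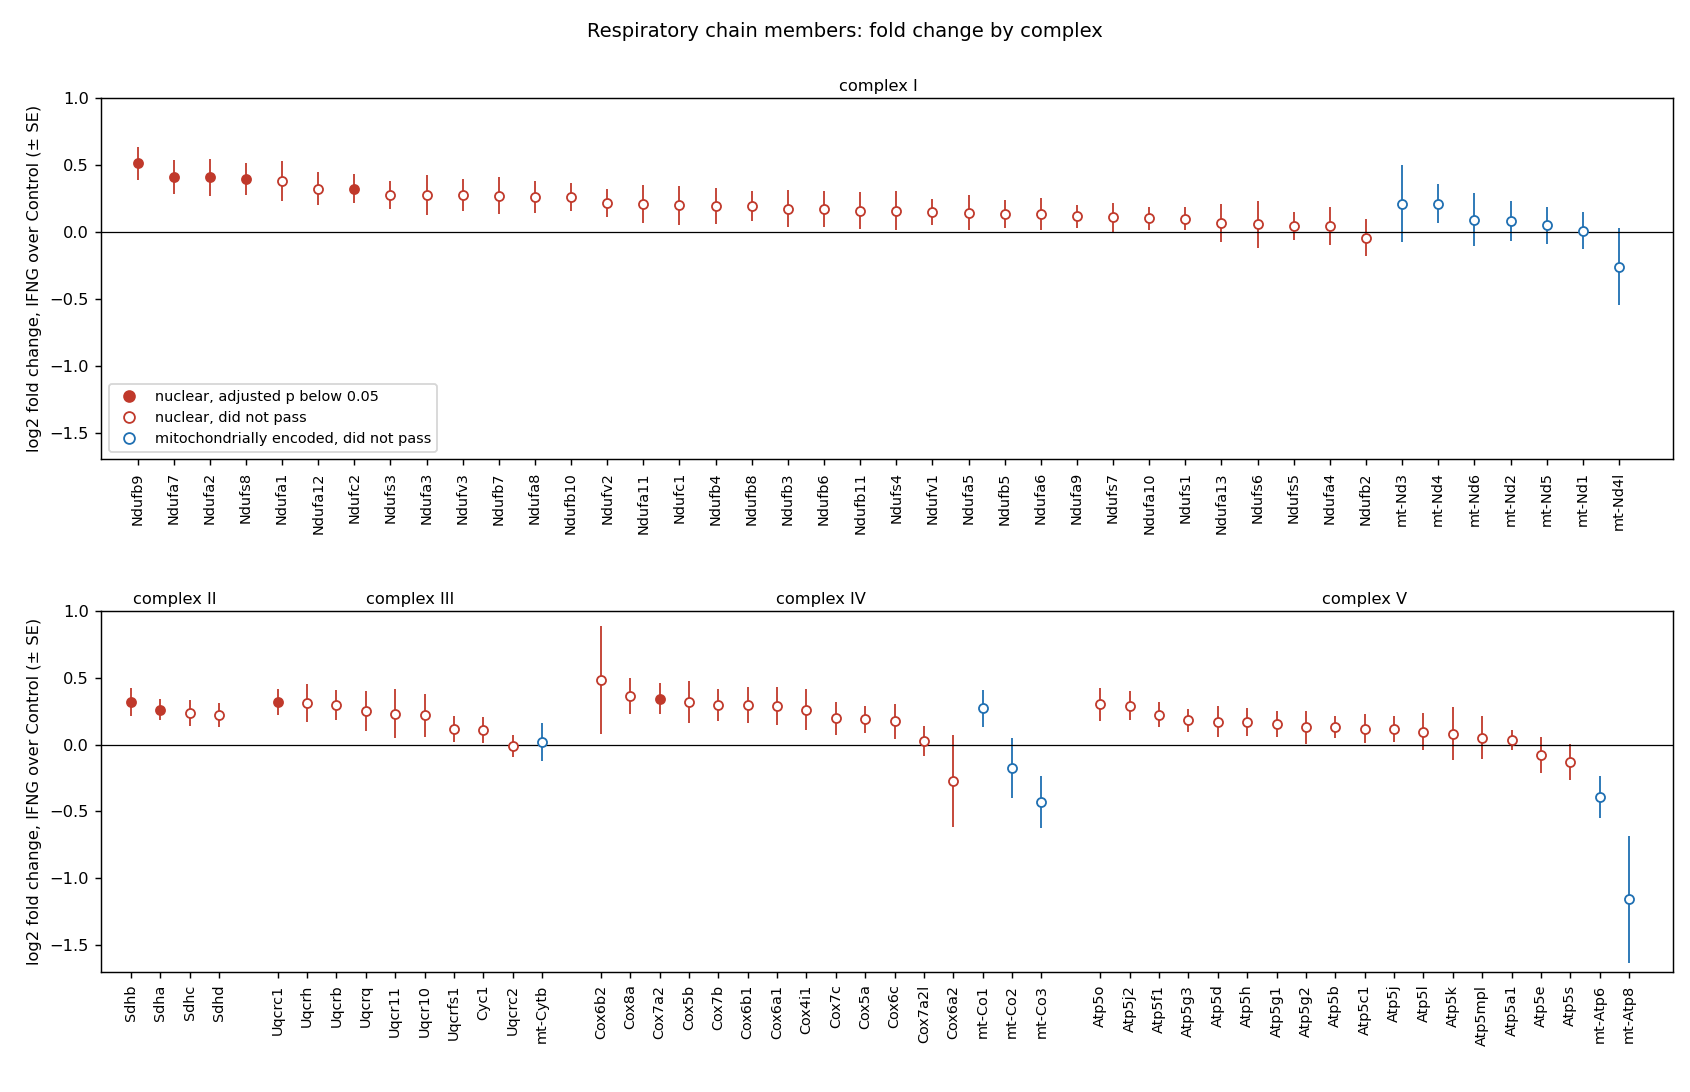
Log2 fold change of IFNG over Control (± SE) for 91 members, by complex, with nuclear members in red and mitochondrially encoded members in blue. Filled points passed the test, and 73 of the 78 nuclear members drawn lie above 0.

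One library, IFNG 5, held much of this shift. It was the highest of the 6 IFNG libraries for 73 of the 80 nuclear members. Its mean log2 CPM over all nuclear members was 6.45, while the remaining IFNG libraries lay at 5.88 to 6.03 and Control libraries at 5.76 to 5.98. Cytosolic ribosomal protein genes were high in the same library, with a mean log2 CPM of 7.49 in IFNG 5, at 6.80 to 6.99 in the remaining IFNG libraries and at 6.83 to 7.17 in Control. IFNG 5 also had the lowest summed level of neuron markers, 4764 CPM. Without IFNG 5, the median of the nuclear members was 0.09, 68 of 79 lay above 0, and 6 rose (Ndufb9, Ndufa7, Ndufs8, Sdha and Uqcrc1 among them), where 14.2% of all genes were higher. Control 4 was the highest Control library for 38 of the 80 nuclear members, and without it 15 rose. Leaving out other single libraries also moved the count: 6 rose without IFNG 2 or Control 2, 5 without Control 1 and 4 without Control 3, and 15 without IFNG 1 or IFNG 4. Of all genes, 12.5% to 15.1% were higher when any 1 library was left out.

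**Figure D2:**
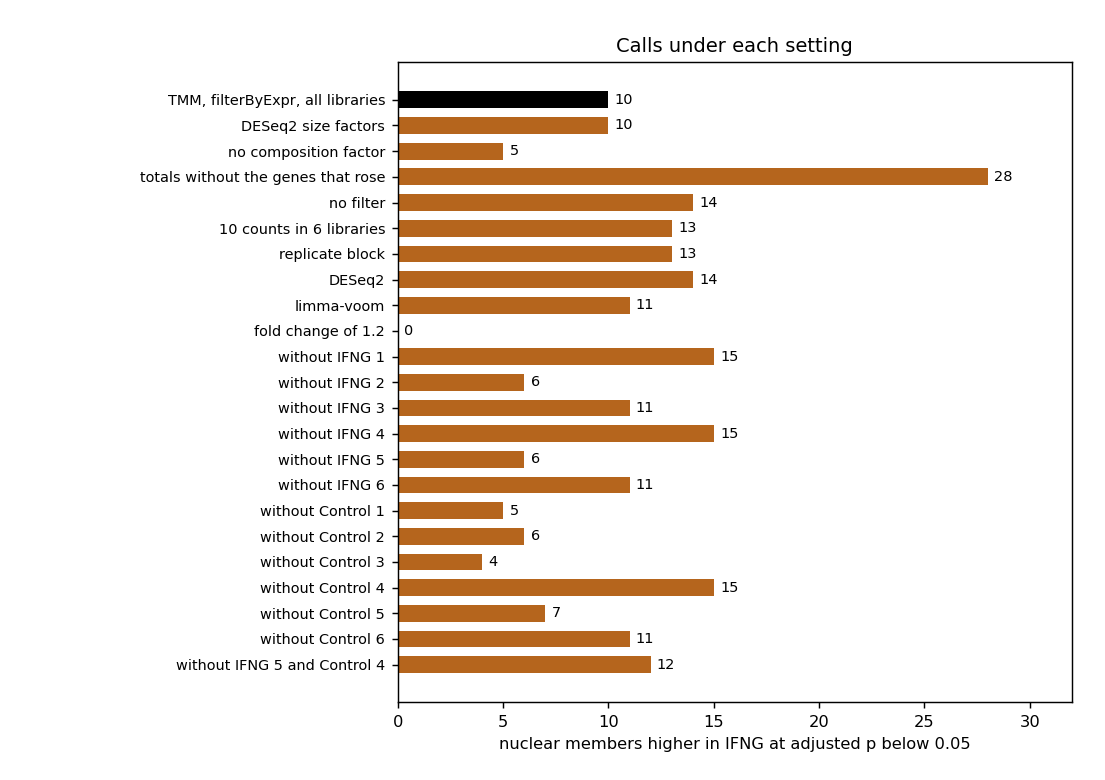
Number of nuclear members higher in IFNG at an adjusted p below 0.05 under each setting, with the setting used in the text in black and the alternatives in brown. Counts lie between 4 and 15 with 1 library left out, at 0 against a fold change of 1.2 and at 28 on totals without the genes that rose.

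**Figure D3:**
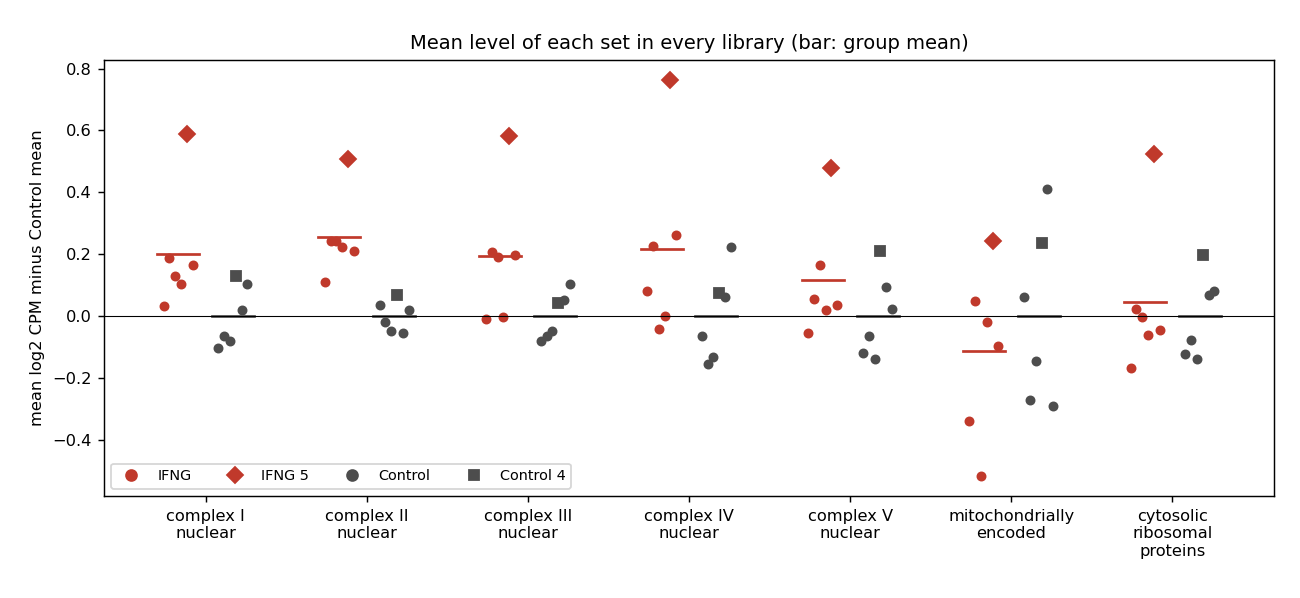
Mean log2 CPM of each set minus the mean over Control libraries, for every library, with IFNG in red left of Control in grey and bars at group means. IFNG 5 (diamond) stands above all other libraries in the nuclear sets of all complexes and in cytosolic ribosomal proteins, and the IFNG libraries do not overlap the Control libraries in complex II.

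Complex I held 6 of the 10 members that rose, out of 36 tested (16.7%, against 14.3% of all genes), and 35 of the 36 had a log2 fold change above 0, with a median of 0.19, or 0.10 without IFNG 5. Ndufb9, an accessory subunit of the membrane arm, had the largest rise. Its level was 85.7, 99.7 and 151 CPM (lowest, median and highest) in IFNG and 64.9, 77.1 and 78.4 CPM in Control. Every IFNG library lay above every Control library, which held for 8.75% of all genes, while 4.09% had the reverse order. Sdha was the only other nuclear member with such a gap, and 0 had the reverse. The log2 fold change of Ndufb9 was 0.51 ± 0.12 (SE; adjusted p = 0.0040), and 0.40 ± 0.09 without IFNG 5. The gene lies in GRCm38 at chromosome 15, 58933756 to 58939488, plus strand. Of its exon bases, 19.5% are shared with the annotated transcript Gm49356 on the same strand. Gm49356 has no row in the count table, so no counts were given to it, and the reads of that stretch may come from either.

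Ndufs8 encodes a core subunit of the arm that carries electrons to ubiquinone. It was at 34.0, 46.1 and 60.2 CPM in IFNG and 30.5, 36.2 and 42.1 CPM in Control, with log2 fold change 0.40 ± 0.12 (SE; adjusted p = 0.022). The groups overlapped through IFNG 1 alone, the lowest IFNG library. The call of Ndufs8 was lost without Control 1 or Control 3. Several core subunits encoded in the nucleus did not pass: Ndufs3 stood at 0.28 ± 0.10 (adjusted p = 0.056), Ndufv2 at 0.22 ± 0.10, Ndufv1 at 0.15 ± 0.10, Ndufs7 at 0.11 ± 0.11 and Ndufs1 at 0.10 ± 0.08.

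The accessory subunits Ndufa7, Ndufa2 and Ndufc2 also rose. Ndufa7 was at 59.7, 64.3 and 102 CPM in IFNG and 45.0, 52.1 and 65.3 CPM in Control, with log2 fold change 0.41 ± 0.13 (SE; adjusted p = 0.023). Ndufa2 was at 26.6, 31.96 and 47.8 CPM in IFNG and 21.5, 26.0 and 32.9 CPM in Control, with log2 fold change 0.41 ± 0.14 (adjusted p = 0.038). Ndufc2 was at 57.1, 66.2 and 95.1 CPM in IFNG and 49.8, 56.4 and 59.8 CPM in Control, with log2 fold change 0.32 ± 0.11 (adjusted p = 0.035). The groups overlapped in all of them, and IFNG 5 was the highest IFNG library in each. Without IFNG 5, Ndufa2 and Ndufc2 did not pass, at 0.30 (adjusted p = 0.082) and 0.23 (adjusted p = 0.053). Both were also lost without IFNG 2, Control 1, Control 2 or Control 3, Ndufa2 also without IFNG 4 or Control 5, and Ndufa7 without Control 2 or Control 5. At the other end, Ndufb2 stood at -0.04 ± 0.14, the lowest nuclear value of complex I, and Ndufa4 at 0.04 ± 0.14. Ndufa4 had the highest level per transcript length of the nuclear genes named for complex I, 254 ± 66.7 CPM per kb in IFNG and 246 ± 40.4 CPM per kb in Control (SD, n = 6 each).

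Complex II was the complex whose summed level separated the groups. Its 4 genes together were at 531, 575 and 669 CPM (lowest, median and highest) in IFNG and 470, 486 and 499 CPM in Control, with no overlap. The means were 582 ± 46.3 CPM in IFNG and 485 ± 12.5 CPM in Control (SD, n = 6 each), and without IFNG 5 the IFNG mean was 565 ± 19.9 CPM with a lowest library of 531 CPM. Much of that sum was Sdha, at a mean of 298 CPM in IFNG and 249 CPM in Control. Taken singly, each of the other genes overlapped between the groups. Sdha and Sdhb, which form the catalytic head that oxidises succinate, rose, 2 of the 4 tested (50%, against 14.3% of all genes). Sdha was at 279.6, 302 and 321 CPM in IFNG and 231, 249 and 261 CPM in Control, again with no overlap, and its log2 fold change was 0.26 ± 0.08 (SE; adjusted p = 0.014), or 0.25 ± 0.07 without IFNG 5 (adjusted p = 0.013). Sdhb was at 102, 112 and 147 CPM in IFNG and 85.2, 89.0 and 119 CPM in Control, with log2 fold change 0.32 ± 0.11 (adjusted p = 0.033). The overlap in Sdhb came from Control 4, which stood at 119 CPM where the other Control libraries reached at most 91.1 CPM.

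Sdhc and Sdhd, the membrane anchors that bind ubiquinone, did not pass. Sdhc was at 74.4, 89.6 and 104 CPM in IFNG and 68.5, 74.5 and 80.8 CPM in Control, with log2 fold change 0.24 ± 0.10 (SE; adjusted p = 0.080). Sdhd was at 72.9, 76.6 and 97.2 CPM in IFNG and 60.3, 68.5 and 75.1 CPM in Control, with log2 fold change 0.22 ± 0.09 (adjusted p = 0.089). In both, the lowest IFNG libraries lay among the Control libraries. All 4 genes had an unadjusted p below 0.05 and a log2 fold change between 0.22 and 0.32. The call of Sdhb was lost without IFNG 5, at 0.25 (adjusted p = 0.052), and also without IFNG 6, Control 1, Control 2, Control 3, Control 5 or Control 6, while that of Sdha held without any 1 of the 12 libraries.

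**Figure D4:**
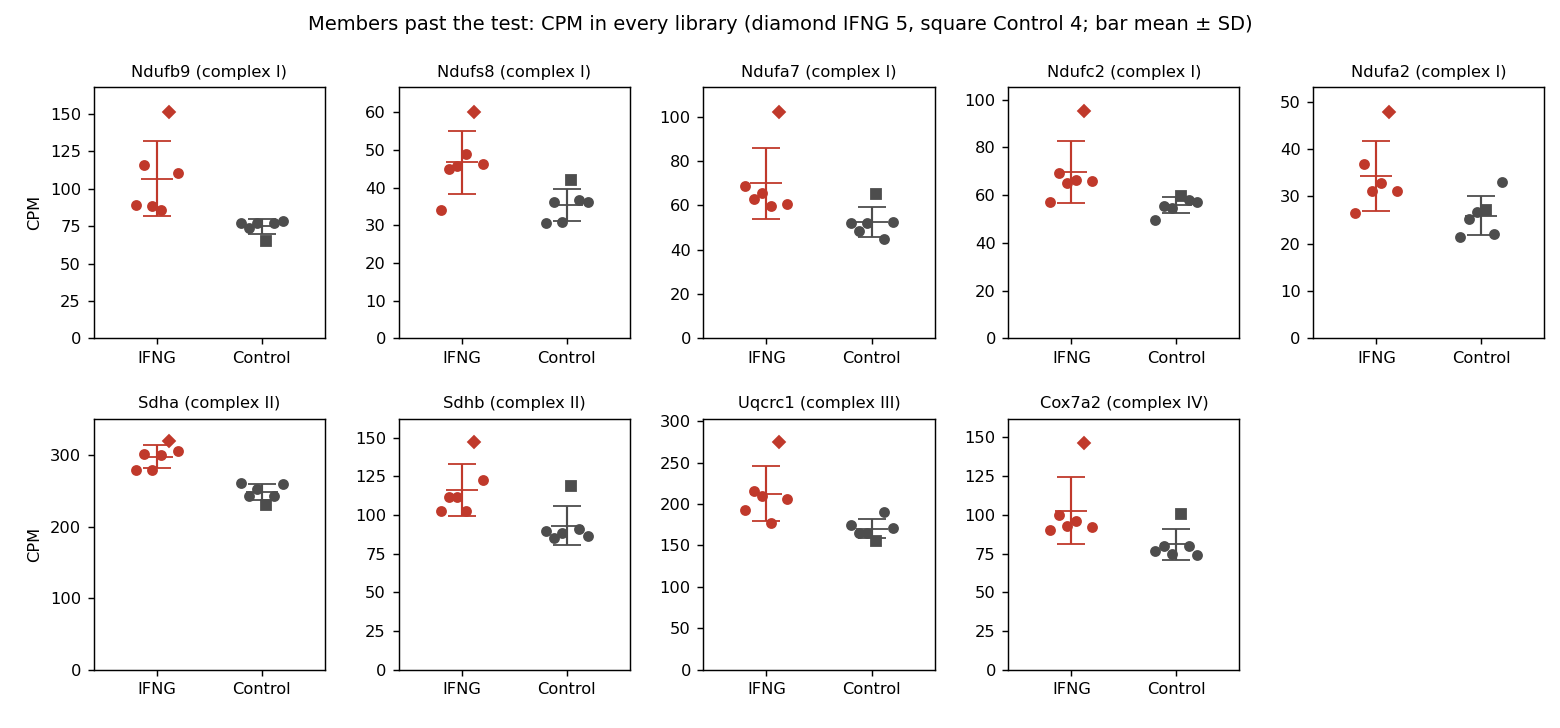
CPM in every library for 9 of the 10 members that rose, IFNG in red left of Control in grey, with mean ± SD (n = 6 each). In Ndufb9 and Sdha every IFNG library lies above every Control library, and IFNG 5 (diamond) is the highest IFNG library in all 9.

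Complex III had 1 call among 9 nuclear members (11.1%, against 14.3% of all genes), and their median log2 fold change was 0.23, or 0.09 without IFNG 5. Uqcrc1, one of the large core proteins on the matrix side, was at 177, 208 and 274 CPM in IFNG and 155, 168 and 190.0 CPM in Control, and the groups overlapped. Its log2 fold change was 0.32 ± 0.10 (SE; adjusted p = 0.022), and 0.25 ± 0.08 without IFNG 5 (adjusted p = 0.029). Uqcrc2, its partner core protein, was at 162, 172 and 201 CPM in IFNG and 163, 172 and 201 CPM in Control, with log2 fold change -0.01 ± 0.08 (adjusted p = 0.941). The redox subunits Uqcrfs1, the Rieske protein, and Cyc1, cytochrome c1, stood at 0.12 ± 0.10 and 0.11 ± 0.09 and did not pass. Uqcrh, the hinge protein and the most abundant nuclear member of the complex per transcript length, was at 67.6, 80.6 and 127 CPM in IFNG and 57.8, 63.9 and 82.6 CPM in Control, with log2 fold change 0.31 ± 0.14 (adjusted p = 0.116).

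Complex IV had 1 call among 13 tested nuclear members (14 in all), or 7.7%, against 14.3% of all genes. Its median log2 fold change, 0.29, was nevertheless the highest of the nuclear sets. Without IFNG 5 that median was 0.14 and 0 nuclear members passed, where 14.2% of all genes were higher. Cox7a2, the widely expressed isoform of subunit VIIa, was at 90.01, 94.3 and 146 CPM in IFNG and 73.7, 78.2 and 101 CPM in Control, with log2 fold change 0.34 ± 0.12 (SE; adjusted p = 0.040). Control 4 and IFNG 5 were the high libraries of their groups, and the call was lost without IFNG 5, at 0.23 (adjusted p = 0.065). It was also lost without IFNG 2, Control 1, Control 2, Control 3, Control 5 or Control 6. Cox8a came next, at 0.36 ± 0.13 (adjusted p = 0.053). Cox6a1, the most abundant nuclear member of the chain per transcript length, was at 538 ± 151 CPM per kb in IFNG and 440 ± 61.3 CPM per kb in Control (SD, n = 6 each), with a log2 fold change of 0.29 ± 0.14 (adjusted p = 0.158), or 0.14 ± 0.11 without IFNG 5. The supercomplex factor Cox7a2l stood at 0.03 ± 0.11 (adjusted p = 0.904).

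Tissue isoforms of complex IV were scarce. Cox6b2, known from testis, was at 2.27 ± 1.05 CPM in IFNG cultures and 1.63 ± 0.687 CPM in Control cultures, and Cox6a2, known from muscle and some neurons, at 2.25 ± 0.747 CPM in IFNG cultures and 2.73 ± 1.41 CPM in Control cultures (SD, n = 6 each). Neither passed, with log2 fold changes of 0.48 ± 0.40 and -0.27 ± 0.34, the widest errors among nuclear members. Cox7a1 was at 0.694 ± 0.656 CPM in IFNG cultures and 0.383 ± 0.294 CPM in Control cultures and was not tested. Cox4i2, an isoform of Cox4i1 known from lung, had 16 counts over all IFNG libraries and 6 over all Control libraries, and Cox8b and Cox8c had 0.

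Complex V showed the smallest shift, with 0 calls among 17 nuclear members and a median log2 fold change of 0.13, or 0.04 without IFNG 5. Atp5b, the catalytic beta subunit and the most abundant nuclear member of the complex per transcript length, was at 823, 865 and 1031 CPM in IFNG and 738, 804 and 884 CPM in Control, and the groups overlapped. Its log2 fold change was 0.13 ± 0.08 (SE; adjusted p = 0.280), and that of the alpha subunit gene Atp5a1 was 0.04 ± 0.08 (adjusted p = 0.782). The smallest p belonged to Atp5j2, subunit f of the membrane part, at 0.29 ± 0.11 (adjusted p = 0.059). The largest value was that of Atp5o, which holds the peripheral stalk to the head, at 0.30 ± 0.12 (adjusted p = 0.084), and the lowest that of Atp5s, at -0.13 ± 0.14 (adjusted p = 0.540). The genes of the c-ring, Atp5g1, Atp5g2 and Atp5g3, make the same mature protein and stood at 0.16 ± 0.10, 0.13 ± 0.12 and 0.18 ± 0.09. Whether the complexes differ from each other in their shift was not tested.

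None of the 13 mitochondrially encoded members passed in edgeR, with 0 higher and 0 lower, while 3 had an unadjusted p below 0.05, all on the lower side, and with DESeq2 the count of calls was also 0. Together these genes took 4.46 ± 0.65% of the counts in IFNG and 4.18 ± 0.93% in Control (SD, n = 6 each), against 0.808 ± 0.109% in IFNG and 0.730 ± 0.038% in Control for the nuclear members. Their median log2 fold change was 0.02, and -0.02 on library totals without a composition factor. The most abundant per length was mt-Co1, the catalytic core of complex IV, at 11417, 17185 and 19737 CPM in IFNG and 10633, 14069 and 16936 CPM in Control, with log2 fold change 0.27 ± 0.14 (SE; adjusted p = 0.165). Cytochrome b, mt-Cytb, the only mitochondrially encoded member of complex III, stood at 0.02 ± 0.14, and mt-Nd1 of complex I at 0.01 ± 0.14. Mitochondrial transcripts carry short poly(A) tails, and what the enrichment did to their share was not tested.

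The level per transcript length split the mitochondrially encoded members into 2 sets that follow their order on the genome. From mt-Co2 to mt-Nd4l, 6 genes in a row (mt-Co2, mt-Atp8, mt-Atp6, mt-Co3, mt-Nd3 and mt-Nd4l) lay between 2.23 and 57.4 CPM per kb in IFNG and between 5.08 and 49.7 CPM per kb in Control. The other 7 lay between 2910 and 10830 CPM per kb in IFNG and between 2516 and 8979 CPM per kb in Control. The low stretch coincides with one of near-perfect copies on chromosome 1 in GRCm38: blastn found a copy of 100% identity for mt-Co2 (Gm28661, over 681 bases) and for mt-Atp6 (Gm10925, over 678 bases), and mt-Co3, mt-Nd3, mt-Nd4l and part of mt-Nd4 have annotated copies there too. How the counts divided between member and copy varied. The copies of mt-Co2, mt-Atp6, mt-Co3 and mt-Nd4l drew counts of the same order as the members, with 2487 counts for Gm28661 in IFNG and 2361 in Control, against 1940 for mt-Co2 in IFNG and 1845 in Control. The copy of mt-Nd3 drew fewer, with 242 counts in IFNG and 235 in Control, against 2582 for mt-Nd3 in IFNG and 1845 in Control. The partial copy of mt-Nd4, a gene outside the low stretch, drew 1006 counts in IFNG and 1210 in Control, against 503196 for mt-Nd4 in IFNG and 373311 in Control. Reads that match both places equally cannot be assigned to either, so the values of these genes are uncertain. No such copy is annotated for mt-Atp8, which shares 21.1% of its bases with mt-Atp6. Less similar copies lie on chromosome 2. That of mt-Co2, Gm13341 (95.91% identity), drew 1858 counts in IFNG and 1569 in Control. That of mt-Co1, Gm13340 (97.61% identity), drew 3523 in IFNG and 3543 in Control, against 2117217 for mt-Co1 in IFNG and 1498002 in Control. Whether the copies account for the low stretch was not tested. The first 60 bases of mt-Nd3 and of its copy show how close they are. The only difference in 345 bases compared is T3C (the base of mt-Nd3, the position from its first base, the base of the copy), set in capitals.
mt-Nd3, chrM:9459-9518, plus strand, GRCm38: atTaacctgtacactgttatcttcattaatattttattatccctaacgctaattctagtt
Gm28438, chr1:24613060-24613119, minus strand, GRCm38: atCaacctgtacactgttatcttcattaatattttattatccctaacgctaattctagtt

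**Figure D5:**
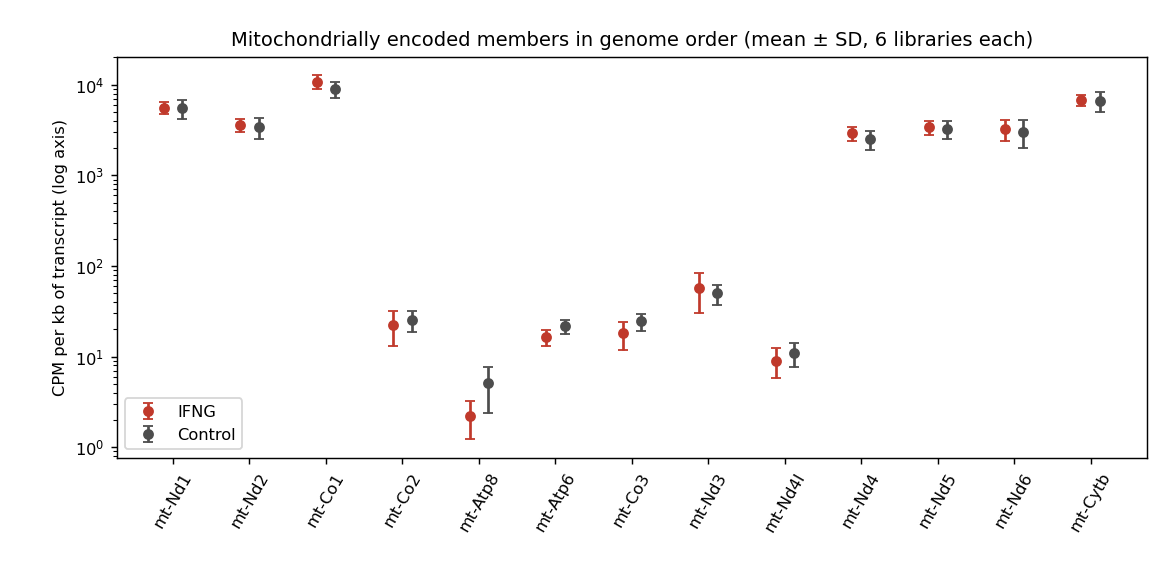
CPM per kb of transcript (log axis, mean ± SD, n = 6 each) of the 13 mitochondrially encoded members in genome order, IFNG in red left of Control in grey. The 6 genes from mt-Co2 to mt-Nd4l lie below 60 CPM per kb and the other 7 at 2516 or above.

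The 3 lowest fold changes of all members lay in that uncertain stretch. mt-Atp6, the proton channel subunit of complex V, was at 8.68, 10.5 and 15.4 CPM in IFNG and 11.5, 14.0 and 17.7 CPM in Control, and the groups overlapped. Its log2 fold change was -0.39 ± 0.16 (SE; adjusted p = 0.075). mt-Co3 of complex IV was at 10.7, 12.2 and 23.8 CPM in IFNG and 12.8, 18.3 and 24.6 CPM in Control, with log2 fold change -0.43 ± 0.19 (adjusted p = 0.117). Both passed as lower without IFNG 5, at -0.50 (adjusted p = 0.016) and -0.63 (adjusted p = 0.0053), where 9.05% of all genes were lower. IFNG 5 was the highest IFNG library in both. With the counts of the chromosome 1 copies added, an alternative chosen after seeing the data, mt-Atp6 stood at -0.29 ± 0.16 and mt-Co3 at -0.29 ± 0.18, and neither passed unless IFNG 5 was also left out (-0.41, adjusted p = 0.047, and -0.50, adjusted p = 0.0077). The added counts left these genes far below those outside the stretch. In IFNG, mt-Atp6 and its copy had 1396 and 2173 counts, against 2117217 for mt-Co1. The sums are thus no check on their fold changes. mt-Atp8 had 60 counts over all IFNG libraries and 113 over all Control libraries, with log2 fold change -1.16 ± 0.47 (adjusted p = 0.084). Among other single libraries, mt-Atp6 also passed as lower without Control 2, and mt-Co1 as higher without IFNG 3.

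Copies and overlapping neighbours also touch nuclear members. Copies were sought among annotated transcripts of other genes, at 95% identity or more over at least 100 bases and 50% of the transcript. By this search 12 nuclear members had a copy, among them Ndufs3, Uqcrb and Atp5o, and none of the 10 that rose. Copies without an annotated transcript were not sought. Exons of 28 nuclear members overlap those of a neighbour, among them Ndufa2 with Tmco6 on the opposite strand, over 11.5% of its exon bases. Since the strand setting of the counting is not known, reads there cannot be assigned.

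Around the chain itself, few assembly factors passed. Of the tested factors, 5.6% rose for complex I, 25% for complex II and 10.5% for complex IV, against 14.3% of all genes. In the list for complex I, 18 genes that include the accessory subunit Ndufab1, Foxred1 rose, by 0.36 ± 0.10 (SE; adjusted p = 0.013). Sdhaf2, which helps to insert the flavin of Sdha, rose by 0.37 ± 0.11 (adjusted p = 0.018) among 4 factors of complex II. In complex IV, Sco1, a copper chaperone, and Surf1 rose among 19 tested, by 0.39 ± 0.13 and 0.32 ± 0.12 (adjusted p = 0.039 and 0.047), and these calls held in 9 and 7 of 22 alternatives. Leaving out 1 library ended the call of Sco1 for all but IFNG 2, IFNG 5, IFNG 6 and Control 4, and that of Surf1 for all but IFNG 4 and IFNG 6. None of 6 factors of complex III or 4 of complex V passed, with 0 higher and 0 lower. These names were taken because so few members of each list changed, after their values were seen.

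Among electron carriers, adenine nucleotide carriers and supercomplex factors, 4 of 19 rose (21.1%, against 14.3% of all genes) and 0 fell. Slc25a5, an exchanger of ADP and ATP across the inner membrane, was at 170.0, 191 and 226 CPM in IFNG and 133, 139 and 145 CPM in Control, without overlap, and its log2 fold change was 0.47 ± 0.08 (SE; adjusted p = 0.00024). Its abundant paralog Slc25a4 stood at 0.08 ± 0.09 (adjusted p = 0.559). Etfa and Etfb, which pass electrons from fatty acid oxidation to ubiquinone, rose by 0.48 ± 0.11 and 0.50 ± 0.14 (adjusted p = 0.0031 and 0.015), and Coq2, of ubiquinone synthesis, rose by 0.41 ± 0.09 (adjusted p = 0.0027). Cycs, cytochrome c itself, stood at 0.06 ± 0.11 (adjusted p = 0.742). The 4 calls held without IFNG 5, at 0.37 to 0.44, and that of Etfb was lost without IFNG 5 and Control 4 together.

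Of 15 tested paralogs and stand-ins of subunits, 2 rose (13.3%, against 14.3% of all genes), the member Cox7a2 and AA467197. AA467197, the mouse counterpart of a human paralog of NDUFA4, was at 1.85, 2.79 and 5.16 CPM in IFNG and 0, 0.189 and 0.848 CPM in Control, without overlap. It had 370 counts over all IFNG libraries and 27 over all Control libraries, and a log2 fold change of 3.58 ± 0.61 (SE; adjusted p = 0.00016), or 3.37 without IFNG 5. Ndufa4 was at 115, 121 and 207 CPM in IFNG and 112, 122 and 169 CPM in Control, with groups that overlapped. AA467197 thus remained scarce beside Ndufa4 in both groups, in CPM that take no account of length.

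Genes that govern mitochondrial transcription and biogenesis gave 3 calls among 20, all higher (15%). That is close to the 14.3% of all genes that were higher. Ppargc1a, the coactivator PGC-1alpha, was at 48.3, 61.3 and 69.1 CPM in IFNG and 39.7, 43.6 and 45.0 CPM in Control, without overlap, and its log2 fold change was 0.47 ± 0.10 (SE; adjusted p = 0.0016). Slirp, which binds mitochondrial mRNA, rose by 0.50 ± 0.14 (adjusted p = 0.014), and Top1mt, the mitochondrial topoisomerase, by 0.56 ± 0.17 (adjusted p = 0.019). The gene of NRF1 itself stood at -0.18 ± 0.15 (adjusted p = 0.433) and Tfam, the mitochondrial transcription factor, at -0.06 ± 0.12 (adjusted p = 0.765). In the tricarboxylic acid cycle, which shares complex II, 3 of 18 rose (16.7%, against 14.3% of all genes) and 0 fell. Among those that rose were Suclg2, by 0.57 ± 0.15, and Idh2, by 0.42 ± 0.13 (adjusted p = 0.0081 and 0.019). The calls of the 5 genes named as risen here held without IFNG 5, and those of Top1mt and Idh2 were lost without IFNG 2.

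Mitochondrial ribosomal protein genes had 4 higher (5.3%) and 1 lower (1.3%) of 76 tested, at a median of 0.10 on the log2 scale. Cytosolic ribosomal protein genes had 0 higher and 0 lower of 78, with a median of 0.05. Of all genes, 14.3% were higher and 9.79% lower. Among 22 tested genes of mitochondrial protein import 0 rose and Tomm70a, an outer membrane receptor, fell by 0.35 on the log2 scale (SE 0.11; adjusted p = 0.029), a call lost without IFNG 5 (-0.26, adjusted p = 0.058) and also without IFNG 2, IFNG 6, Control 4 or Control 5.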

How the data were processed

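The deposited file holds whole-number counts for each gene in 12 samples, not normalized by the authors. STAR 2.4, DESeq2, GRCm39 and mm10 are named in the submitters' processing notes, without a role. The read counter and its strand setting were not found in any source used here. Symbols, positions and transcript lengths came from GENCODE M21 (GRCm38), which named 42548 of 43629 genes. Genes without a symbol held 0.100% to 0.113% of a library's counts and stayed in the tests.

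IFNG was compared with Control in edgeR 4.0.16 (R 4.3.3): TMM scaling, filterByExpr, two-sided quasi-likelihood F-tests, Benjamini-Hochberg adjustment over all 15241 genes at 0.05, no block. CPM use TMM-scaled totals. Mean log2 CPM use a prior count of 2. SE is the absolute log2 fold change over the square root of F. Levels between genes are per kb of the principal transcript. No pair of libraries in a group agreed within sampling noise (chi-square of at least 7.40 per gene). The samples are called cultures as the labels do, but nothing says that each came from a separate one, so p-values measure how far these samples spread, which can be technical. Whether equal replicate numbers mark paired samples is not known.

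Alternatives were other scalings and filters, DESeq2 1.42.0, limma-voom (limma 3.58.1), a test against a fold change of 1.2, a replicate block, and each library left out. Copies were sought with blastn 2.17.0 among the annotated transcripts of GENCODE M21. Motif letters were settled after a first scan of the promoters with longer forms of the NRF1 and interferon-stimulated motifs. Scripts were tested on simulated data. Members and the 18 gene lists were chosen with earlier results of these data known. Genes named are those past the test, those with the highest level, smallest p or extreme fold change of each complex, and up to 3 per further list. Others were chosen after their values were seen. Values of 2 genes are not reported here.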

Additional observations from a re-analysis of the deposited data

Results flagged for a closer look

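In 44 checked values (means of sets and levels of named members in each group of 6), 10 had a library at the end of its group's range by more than Dixon's limit for 6 samples. Chance alone flags about 1 group in 20 by this limit, and the values are not independent, since members share libraries.

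IFNG 5 was the library in 7 of the 10. Its mean log2 CPM was 6.03 for the nuclear members of complex I (5.48 to 5.63 in the other IFNG libraries), 7.21 for complex II (6.81 to 6.95), 6.73 for complex III (6.14 to 6.35), 6.45 for all nuclear members (5.88 to 6.03) and 6.70 for all members (6.13 to 6.31). Among single members, IFNG 5 stood at a log2 CPM of 6.67 for Ndufa7 (5.90 to 6.10 in the others) and 7.19 for Cox7a2 (6.49 to 6.64). Control 4 was low for Ndufb9, at 6.02 (6.21 to 6.30 in the other Control libraries), and high for Sdhb, at 6.89 (6.41 to 6.51), and for Cox7a2, at 6.65 (6.21 to 6.33).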

How the results depend on the processing

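The direction of every named gene that passed in any setting was the same in all 22 alternatives. The count of nuclear members higher in IFNG, 10 in all libraries, was 5 without a composition factor (12.9% of all genes higher), 28 on totals without the genes that rose (17.9%; median 0.28 for nuclear members and 0.07 for all genes), 0 against a fold change of 1.2 (9.8%), and 4 to 15 with 1 library left out (12.5% to 15.1%). It was 13 with a replicate block (13.9%), 14 with DESeq2 (15.4%) and 11 with limma-voom (14.4%). Mitochondrially encoded calls, 0 in all libraries, were 1 without a composition factor, 2 without IFNG 5 and Control 4 together, 2 with the chromosome 1 copies added and IFNG 5 left out, and 0 to 2 with 1 library left out. All genes past the test were 1951 against a fold change of 1.2, against 3676. By complex, calls without a composition factor were 3, 1 and 0 for complexes I, II and IV. On totals without the genes that rose they were 13, 4, 3, 4 and 4 for complexes I to V. Against a fold change of 1.2 they were 0 for complexes I to IV. Without a filter complexes IV and V had 2 each, with 10 counts in 6 libraries complexes III and IV had 2 each, with DESeq2 complexes III and IV had 2 each and complex V 1, and without IFNG 5 and Control 4 complex V had 1. With 1 library left out the ranges were 2 to 9 for complex I, 1 to 3 for complex II, 1 to 2 for complex III, 0 to 2 for complex IV and 0 to 2 for complex V. The genes dropped from the totals were those called higher in these same data, so that setting lifts IFNG fold changes by construction. Its 28 calls are therefore not separate support. The cause of the other moves was not tested.

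Whether equal replicate numbers mark paired samples is not known. Over all genes, 2 of 6 correlations between same-numbered libraries were over 0.1, and 4 of 12 libraries correlated best with their own number. Such weak correlations cannot exclude pairing. The replicate block moved SEs both ways, from 0.138 to 0.097 for mt-Nd1 and from 0.291 to 0.322 for mt-Nd4l. With the replicate block, complex IV had 3 calls, mt-Atp6 passed as lower, making 1 mitochondrially encoded call, and Ndufa2 did not pass.

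Among the 10 members that rose, Ndufb9, Sdha and Uqcrc1 passed in 21 of 22 alternatives, Ndufa7 and Ndufs8 in 19, Ndufc2 in 15, Sdhb and Cox7a2 in 13 and Ndufa2 in 11. Depth limits Cox6a2, Cox6b2, Cox7a1 and mt-Atp8 most, and reads shared with the copies on chromosome 1 leave mt-Co2, mt-Atp6, mt-Co3, mt-Nd3 and mt-Nd4l uncertain at any depth.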
